A study of Homo sapiens with 2 samples.

Results

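The sgRNAs described here are those against genes for synthesis, attachment and remodelling of the glycosylphosphatidylinositol (GPI) anchor in a CRISPR/Cas9 knockout screen of an Ewing sarcoma cell line. They were taken by the gene symbol listed, as PIG followed by a single letter (apart from PIGR), any symbol starting with PGAP, and GPAA1. This gave 99 of the 74336 distinct sgRNAs listed, against 25 of 19112 genes, with 4 sgRNAs for each gene except PIGK, which has 3. The screen used a single-cell clone of A673, a line that grows in culture without its EWSR1::FLI1 fusion, in which tdTomato was knocked in at the C-terminus of FLI1 so that its fluorescence follows the fusion protein. The clone also carried lentiviral Cas9 and, from a CMV promoter, EGFP as the control fluorophore, and both populations share all of these. Cells received the Brunello lentiviral pool at an MOI of 0.3, 2 µg/ml puromycin for 12 days and no puromycin for 3 days. They were then either left unsorted or sorted for low tdTomato and high EGFP, a gate of about 7% of cells, and expanded. The sorted library, SortedB, is taken here to be this gate from the study's methods, since its label does not name the gate. Each population was sequenced as 1 library, with 10483144 reads in the unsorted and 1455322 in the sorted library, so no difference below has a replicate check and each test compares these 2 libraries only.

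The GPI anchor is a glycolipid that holds many cell surface proteins in the outer leaflet of the plasma membrane. It is built on phosphatidylinositol in the endoplasmic reticulum by sugar transfer, deacetylation, acylation, mannose addition and ethanolamine phosphate addition, and a transamidase then exchanges it for a C-terminal signal of the client protein. The anchor is trimmed and its lipid remodelled on the way to the surface. PIGA, an X-linked gene of the opening step, is best known for its loss in blood stem cells in paroxysmal nocturnal hemoglobinuria, and inherited defects of most other steps affect the nervous system.

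The enriched sgRNAs of genes with at least 2 enriched sgRNAs are shown first, because the gene counts turn on them. The other sgRNAs of these genes are left out of this first list. Letters after the gene symbol order the sgRNAs of a gene from the highest to the lowest odds ratio. All sequences are 20 bases, 5′ to 3′, without the PAM, and capitals mark the 12 bases next to it, the stretch where Cas9 tolerates mismatches least.
PIGY-a: tgtggaagAAAACTTCCCAC
PIGY-b: actgttctACTCAGCCTCTG
PIGY-c: agtcctgcTAAAGAAACCAG
PIGA-a: gtttgtatCACAAAGAGACA
PIGA-b: ccgtacccATAATATATGCA
PIGH-a: agcgaacgCAGCGAGAGCCG
PIGH-b: ggccgccaGCCACACCGTGC
PIGN-a: gccactgcCAATATGGTATG
PIGN-b: gaagaaagTCCAACTCAGTG
PIGN-c: gtctgtcaTTCCATGGTCAG
PIGO-a: aggctttcCACAGAAAAGGG
PIGO-b: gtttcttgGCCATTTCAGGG
PIGU-a: ttacataaAGCCATAGACTG
PIGU-b: tggccgagTTCATTTCCGAG
PGAP1-a: taacttacCACACAATGGAG
PGAP1-b: ataaagatACAACTCATATG
PGAP1-c: gtttatgtACCATCTGTTCG
PGAP2-a: tggacagcAGACCGTGACCA
PGAP2-b: ggtgagctCAGCCATCGGCG

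The sgRNAs of PIGF and PIGB below complete the 5 largest odds ratios among enriched sgRNAs with at least 30 unsorted reads, beside PIGY-b, PIGA-b and PIGN-a. The remaining sequences are the 5 with 0 sorted reads and the most unsorted reads, for which a loss is bounded most tightly.
PIGF-a: tattggaaACACACTTGACA
PIGB-a: tttaacgtGCTGCAGAACTG
PIGX-d: tgtcctgtTTAATTAAGAGA
PIGO-d: gtggctgaAGTGCCAAGGCG
PGAP2-d: gcgatagcAGGAACACGGGG
PIGC-d: gaaataccAATATTGGGCTG
PIGQ-d: gagcacatCCTTTGGCACGT

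Of the 99 GPI anchor sgRNAs, 28 (28.3%) were enriched after sorting, where 20.8% of all listed sgRNAs were. Enriched here means an odds ratio (sorted over unsorted) no lower than 2 and depleted one no higher than 0.5, in both cases with an adjusted p under 0.05 from a two-sided Fisher's exact test that sets the reads of an sgRNA against the rest of each library. In the other direction 52 sgRNAs (52.5%) were depleted, against 51.7% of all sgRNAs, and 46 (46.5%) had 0 sorted reads, against 57.6%. Of those 46, 40 were depleted and 6 had too few unsorted reads to be called. Among the 53 that were recovered after sorting the median was 39 reads, and over all recovered sgRNAs it was 40. Summed over the 99, the sgRNAs made up 0.145% of unsorted and 0.154% of sorted reads, a ratio of 1.06. By gene, 8 of 25 (32.0%) had at least 2 enriched sgRNAs (PIGY, PIGA, PIGH, PIGN, PIGO, PIGU, PGAP1 and PGAP2), where 18.8% of all genes did. At least 3 were enriched for 3 genes (PIGY, PIGN and PGAP1), against 2.84% of all genes, and no gene had 4. All sgRNAs had 0 sorted reads for 2 genes, PIGK and PIGM, where 14.6% of all genes did. Whether these shares differ from those of the library was not tested. Under a negative binomial test, whose spread was taken from sgRNAs against olfactory receptor genes, a single GPI anchor sgRNA (PIGY-a) was enriched and 0 genes had at least 2. The shares were 0.720% of all sgRNAs and 0.0523% of all genes. PIGY-a had 5 unsorted reads, the lowest count among the 99, which an sgRNA of PIGK shared. The negative binomial test takes the unsorted count as exact.

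The complex that adds N-acetylglucosamine to phosphatidylinositol, which opens the pathway, had its largest values at PIGY, a small accessory subunit. For PIGY-b 73 reads before and 121 after sorting were counted, which gave an odds ratio of 11.9 (8.86 to 16.2, an exact 95% interval, as are the ranges in parentheses after other odds ratios; Fisher's exact test, adjusted p = 1.13e-58). PIGY-a, with 5 and 32 reads, reached 46.1 with a wide interval of 17.8 to 152. PIGY-c had 48 and 17 reads (odds ratio 2.55, 1.38 to 4.52). The last sgRNA of the gene moved the other way, with 147 and 8 reads (0.392, 0.166 to 0.793). Every sgRNA of PIGY thus passed a limit, 3 upward and 1 downward, and the reads of the gene together were 4.70 times as frequent in the sorted library. PIGY is translated from the same transcript as PYURF, whose 4 sgRNAs had odds ratios of 5.94 and 2.44 and a pair with 0 sorted reads, of 524 and 104 unsorted reads.

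PIGA, the catalytic subunit of that complex, had 2 enriched sgRNAs. PIGA-b had 62 reads in each library, which at the lower depth of the sorted library is an odds ratio of 7.20 (4.98 to 10.4; Fisher's exact test, adjusted p = 1.81e-23). PIGA-a had 23 and 31 reads (9.71, 5.48 to 17.4). Both remaining sgRNAs of PIGA were without sorted reads. The one with 215 unsorted reads would be 9.95-fold lower at 3 sorted reads, a floor set in place of 0 (upper interval limit 0.125). The one with 12 allowed no call. Folds given for other sgRNAs without sorted reads use the same floor and are not interval limits. PIGH, a subunit that associates with PIGA, had odds ratios of 2.65 (177 and 65 reads) and 2.58 (159 and 57 reads), beside 0.270 (240 and 9 reads) and 0 sorted of 73 unsorted reads. PIGA and PIGH therefore each held sgRNAs past both limits.

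The other subunits, PIGC, PIGP and PIGQ, had 0 enriched sgRNAs. PIGC had 247 and 50, 220 and 39, and 194 and 26 reads for its first 3 sgRNAs, with odds ratios of 1.46, 1.28 and 0.965 that passed neither limit. PIGC-d fell from 300 reads to 0, which is 13.9-fold lower at the floor of 3 reads (upper limit 0.0891). PIGP had 468 and 85 reads at its highest sgRNA (odds ratio 1.31), and 0 sorted reads at the rest, of 106, 207 and 233. PIGQ had the same shape, with 73 and 18 reads (1.78) and then 0 sorted reads for 130, 136 and 277. Over the 24 sgRNAs of the complex, 7 were enriched (29.2%, against 20.8% of all sgRNAs) and 11 depleted (45.8%, against 51.7%), and the pooled reads were 1.17 times as frequent after sorting.

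PIGL, the deacetylase of the next step, and PIGW, which acylates the inositol, had 1 enriched sgRNA each. For PIGL it had 109 and 53 reads (3.50, 2.47 to 4.91), next to one of 237 and 54 reads with an odds ratio of 1.64 and a pair with 0 sorted reads, of 128 and 226. For PIGW it had 53 and 29 reads (3.94, 2.42 to 6.31), and the other PIGW sgRNAs were all depleted, with 269 and 14, 129 and 1, and 162 and 0 reads. The higher of these odds ratios was 0.375 (0.202 to 0.640).

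The mannosyltransferases had the lowest pooled abundance after sorting, 0.517 times that before, with 14 of 20 sgRNAs depleted (70.0%, against 51.7% of all sgRNAs), 4 enriched (20.0%, against 20.8%) and 13 without sorted reads (65.0%, against 57.6%). No gene of this step had 2 enriched sgRNAs. PIGM, which adds the first mannose, had 0 sorted reads for all of its sgRNAs, which had 11, 43, 69 and 249 unsorted reads. The most abundant of them was 11.5-fold lower at the floor of 3 reads (upper limit 0.108). PIGX, the partner that stabilizes PIGM, held the sgRNA with the most unsorted reads of the 99, which had 0 after sorting. This sgRNA, PIGX-d, went from 554 reads to 0 (upper limit 0.0481, Fisher's exact test, adjusted p = 2.17e-30) and was 25.6-fold lower at the floor of 3 reads. A further PIGX sgRNA went from 471 to 3 reads (odds ratio 0.0459). PIGX also held an enriched sgRNA, of 113 and 68 reads (4.33, 3.16 to 5.91), and one just outside the lower limit, of 115 and 8 reads (0.501).

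PIGV, for the second mannose, PIGB, for the third, and PIGZ, for the fourth, each had 1 enriched sgRNA and 3 depleted. PIGB-a had 45 and 42 reads (6.72, 4.31 to 10.5), against 0 sorted reads of 62, 145 and 186. The enriched sgRNA of PIGZ had 80 and 56 reads (5.04, 3.52 to 7.18), against 0 sorted reads of 51, 73 and 101. The enriched sgRNA of PIGV had 121 and 44 reads (2.62, 1.81 to 3.73), and its others had 288 and 13, 219 and 0, and 264 and 0. In all 3 genes the enriched sgRNA stood alone.

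Among the ethanolamine phosphate transferases, 7 of 16 sgRNAs were enriched (43.8%, against 20.8% of all sgRNAs) and 8 depleted (50.0%, against 51.7%), and the pooled reads were 1.65 times as frequent in the sorted library. PIGN, which modifies the first mannose, was the most even of the 24 genes with 4 sgRNAs. PIGN-a had 45 reads in each library (odds ratio 7.20, 4.66 to 11.1; Fisher's exact test, adjusted p = 2.20e-17), PIGN-b 189 and 79 (3.01, 2.29 to 3.94) and PIGN-c 100 and 39 (2.81, 1.89 to 4.11). The last sgRNA of PIGN had 103 and 23 reads, an odds ratio of 1.61 whose interval of 0.976 to 2.55 includes 1. All 4 sgRNAs of PIGN lay above 1, with log2 ratios of shares from 0.71 to 2.85.

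PIGO, which modifies the third mannose, was split. PIGO-a had 208 and 122 reads (4.23, 3.35 to 5.31) and PIGO-b had 242 and 70 (2.08, 1.57 to 2.73). Another sgRNA with the same 242 unsorted reads had 2 sorted reads (0.0595, 0.00717 to 0.217). PIGO-d went from 359 to 0, which is 16.6-fold lower at the floor of 3 reads. PIGF, the shared partner of PIGO and PIGG, had 46 and 48 reads at PIGF-a (7.52, 4.91 to 11.5) and 0 sorted reads of 50, 61 and 78 at the others. PIGG, which modifies the second mannose, had 112 and 54 (3.47), 137 and 9 (0.473), and 0 sorted reads of 49 and 125.

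The GPI transamidase had the fewest enriched sgRNAs for its size, 2 of 19 (10.5%, against 20.8% of all sgRNAs), and both were in PIGU. PIGU-a had 125 and 45 reads (2.59, 1.80 to 3.67) and PIGU-b 78 and 23 (2.12, 1.27 to 3.42), while its other sgRNAs had 0 sorted reads of 61 and 154. The call of PIGU-b was lost with Bonferroni adjustment. PIGK, the cysteine protease subunit that cleaves the client signal, had 0 sorted reads throughout, but its unsorted reads were 5, 26 and 94 and only the last passed as depleted (upper limit 0.288). GPAA1, a subunit needed to form the bond to the anchor, had 378 and 43 (0.819), 467 and 19 (0.293), and 0 sorted reads of 54 and 65. PIGS had 54 and 10 (1.33) and 0 sorted reads of 28, 34 and 75. PIGT, the subunit joined to PIGK by a disulfide bond, had 164 and 45 reads at its highest sgRNA, an odds ratio of 1.98 (1.39 to 2.76) just under the limit. Its sgRNA with 8 and 1 reads differs from an sgRNA against CALR3 at 3 positions, the closest neighbour of any member, and mapping allowed 3 mismatches and kept only reads with a single match. The effect of this on its count was not tested. The remaining PIGT sgRNAs had 0 sorted reads of 86 and 145. Median unsorted reads were 75 for the transamidase and 125 over all 99 sgRNAs, so a loss is bounded less tightly here.

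Among the remodelling genes listed under a PGAP symbol, 6 of 12 sgRNAs were enriched (50.0%, against 20.8% of all sgRNAs). Of these 12 sgRNAs, 4 were depleted (33.3%, against 51.7%) and 2 were without sorted reads (16.7%, against 57.6%). Their median was 210 unsorted reads, against 103 over all sgRNAs. Of all sgRNAs with at least 150 unsorted reads, 43.5% had 0 sorted reads. The part of abundance in these shares was not tested. PGAP1, which removes the acyl chain from inositol, had PGAP1-a at 60 and 28 reads (3.36, 2.07 to 5.35), PGAP1-b at 79 and 36 (3.28, 2.15 to 4.93) and PGAP1-c at 463 and 141 (2.19, 1.80 to 2.65; Fisher's exact test, adjusted p = 1.84e-13). PGAP1-d went from 233 reads to 1 (0.0309). PGAP2, which takes part in fatty acid remodelling in the Golgi, had PGAP2-a at 228 and 130 (4.11, 3.29 to 5.12; Fisher's exact test, adjusted p = 2.26e-30) and PGAP2-b at 208 and 91 (3.15, 2.44 to 4.05). Its others had 179 and 5 reads (0.201) and 337 and 0, the latter 15.6-fold lower at the floor of 3 reads. PGAP3, of the same remodelling, had 212 and 93 (3.16), 474 and 29 (0.441), 35 and 2 (0.412, an interval of 0.0480 to 1.60) and 26 and 0. The pooled reads of the 3 genes were 1.58 times as frequent after sorting. Genes listed under other symbols that act on the anchor, such as MPPE1 and TMEM8A, are counted below with the other genes of the pathway.

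The sgRNAs of a gene often lay on opposite sides. An enriched sgRNA stood beside one with 0 sorted reads in 14 of 25 genes (56.0%), and in 55.2% of all genes. Across the 24 genes with 4 sgRNAs, the range of log2 ratios within a gene had a median of 6.93, from 2.14 for PIGN to 9.39 for PIGX, against a median of 6.61 over all 17233 genes with 4 sgRNAs. The sgRNAs of a gene share a target, so they are not replicates of a condition. Calls also moved with the unsorted count. Among GPI anchor sgRNAs with fewer than 50 unsorted reads, 6 of 17 (35.3%) were enriched, against 20.5% of all sgRNAs of that abundance. From 50 to 149 reads the count was 13 of 42 (31.0%, against 27.0%), and above that 9 of 40 (22.5%, against 14.0%).

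The guides of the classes had the same median GC content. It was 50% for all 99, for the 28 enriched and for the 46 without sorted reads, as it was in each of these classes of the library. The enriched sgRNAs ran from 25% GC (PGAP1-b) to 80% (PIGH-b and the enriched sgRNA of PIGZ). The base next to the PAM was G in 56 of the 99 (56.6%) and in 16 of the 28 enriched (57.1%), against 55.4% of all sgRNAs. A run of 4 or more of the same base occurred in 5 of the 28 enriched and 5 of the 46 without sorted reads, and in 13.5% of all sgRNAs.

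Most of the other genes listed with the pathway supply mannose as dolichol phosphate mannose, flip intermediates or act on anchored proteins. PYURF, which shares a transcript with PIGY, was listed too and is in the counts. Of the 55 sgRNAs, 17 were enriched (30.9%, against 20.8% of all sgRNAs) and 24 depleted (43.6%, against 51.7%). Of these 14 genes, 5 (35.7%, against 18.8% of all genes) had at least 2 enriched sgRNAs. ARV1 had odds ratios of 4.30 (124 and 74 reads) and 3.31 (50 and 23), CWH43 5.22 and 2.47, MPPE1, which acts on the ethanolamine phosphate of the second mannose, 3.11 and 2.26, TMEM8A, a phospholipase for anchors, 10.3 and 2.28, and PYURF the values given above. In each of the 5 the remaining sgRNAs had 0 sorted reads. Of the dolichol phosphate mannose synthase, the catalytic DPM1 and the subunit DPM3 had 1 enriched sgRNA each and DPM2 had 0.

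Proteins that carry the anchor, the clients of the pathway, had 24 of 127 sgRNAs enriched (18.9%, against 20.8% of all sgRNAs) and 69 depleted (54.3%, against 51.7%), and 7 of the 32 genes found (21.9%, against 18.8%) had at least 2. Among them was GPC3, a glypican that binds Hedgehog ligands, with 3 (17.3, 2.24 and 2.01) and 1 depleted sgRNA (0.409). GPC1, NT5E, PLAUR, PRNP, RECK and THY1 had 2 each, the highest being 35.5 for PLAUR (13 and 64 reads) and 11.2 for PRNP (41 and 64 reads). All sgRNAs had 0 sorted reads for 7 of the 32 genes (21.9%, against 14.6% of all genes), one of which was CD59, a complement inhibitor. Loss of its surface protein marks anchor-deficient cells, and these counts do not measure that protein. CD55, also on the list, had 0 sorted reads for 2 of its 4 sgRNAs, with 3 depleted and 0 enriched. GAS1, a Hedgehog co-receptor, was among the 16 of 32 genes with 0 enriched sgRNAs, where 7788 of all 19112 genes had 0. Assembly and transfer of the N-glycan precursor, another glycan built on a lipid in the endoplasmic reticulum, had 10 of 84 sgRNAs enriched (11.9%, against 20.8% of all sgRNAs) and 60 (71.4%, against 57.6%) without sorted reads. Of those 24 genes, DDOST, a subunit of the oligosaccharyltransferase, alone had 2 (9.60 and 3.18). This is 4.17% of them, against 18.8% of all genes. Some of these 24 genes had fewer than 4 sgRNAs, down to 1, whereas 17233 of all 19112 genes had 4. A gene with fewer sgRNAs has less room for 2 calls, and the part of this in the share was not tested. The median unsorted count was 71 for these sgRNAs, 116 for the anchored proteins, 106 for the other genes listed with the pathway and 125 for the GPI anchor sgRNAs. The part of this difference in the counts was not tested.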

How the data were processed

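Reads per sgRNA were counted in 1 unsorted and 1 sorted library of A673 reporter cells. Guides were amplified by PCR (24 pooled reactions, 20 cycles, then 15 with adapters) and sequenced on a MiSeq. The authors matched the 20-base guides to the Brunello sequences with Bowtie (version 1.2.2), allowing 3 mismatches and a single match, and deposited whole-number counts per sgRNA without normalization. The file also holds the authors' own odds ratios and p-values, which were not used. A genome build was not given in the sources consulted, and coordinates were left out.

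The 3 repeated lines were dropped; the 74336 counts then sum to the library totals. Two-sided Fisher's exact tests were run per sgRNA with Benjamini-Hochberg adjustment over all of them. Odds ratios are of reads against all other reads. Clopper-Pearson (exact) 95% limits were computed for the sorted part of each sgRNA's summed reads and converted to ratios of library shares. For log2 ratios, 0.5 was added to each count. PCR reads carried no molecular identifiers and are not independent molecules, so intervals, floors and p-values cover counting error only. Steps of the pathway and other lists were written by hand, and the members and lists were chosen with earlier results of these data known. All 25 genes were named, and other genes only where at least 2 sgRNAs were enriched. The exceptions, CALR3, CD55, CD59, GAS1 and the DPM genes, were chosen after their values were seen. The test was checked on simulated data that held counting error only, so the check says nothing of calls under wider spread. Accessions of all 25 genes matched RefSeq annotation, used for names. The sequences of GPAA1 sgRNAs are not shown. Alternatives were another odds ratio limit, Bonferroni adjustment, scaling on the 1457 olfactory receptor sgRNAs, a negative binomial test, at least 30 unsorted reads, thinning of the unsorted library and a pseudocount of 5. Python 3.11.15, numpy 2.4.6, pandas 2.3.3 and scipy 1.17.1 were used.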

Additional observations from a re-analysis of the deposited data

How the results depend on the processing

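With 1 library per population the counts have no replicate error, and all of the settings below leave that unchanged. Under the negative binomial test (dispersion 4.70) the enriched sgRNAs fell from 28 to 1 and the depleted from 52 to 0, and 0 genes had at least 2 enriched. Over all sgRNAs that test called 0.720% enriched and 0 depleted, and 0 were depleted at an unadjusted p under 0.05, so its 0 depleted GPI anchor sgRNAs say nothing of them in particular. Without adjustment it gave 3 enriched GPI anchor sgRNAs, and the share of all sgRNAs to set beside this was not computed. Bonferroni adjustment left 25 enriched and 25 depleted sgRNAs (25.3% each, against 17.0% and 23.5% over all sgRNAs) and removed PIGU from the 8 genes with at least 2, and PIGY and PGAP1 then had 2 in place of 3. Thinning the unsorted library also removed PIGU, and at least 30 unsorted reads removed PIGA, so that 7 of the 8 kept 2 enriched sgRNAs in each case. These 7 were 28.0% of the 25 genes. Of all genes, 13.2% had at least 2 with Bonferroni adjustment, 17.8% with thinning and 15.4% with at least 30 unsorted reads. With an odds ratio limit of 1, PIGL joined the 8 (36.0% of the 25 genes, against 26.0% of all genes). Outside the negative binomial test the enriched sgRNAs numbered 25 to 33. The lowest count came with Bonferroni adjustment (25.3%, against 17.0% of all sgRNAs) and the highest with an odds ratio limit of 1 (33.3%, against 25.5%). The median log2 ratio was -1.80 over the GPI anchor sgRNAs and -2.82 over all. It was -2.00 and -3.56 with at least 30 unsorted reads, and -2.10 and -2.81 after thinning. With a pseudocount of 5 it was -0.49 and -0.32, so the order of the 2 medians turned.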
